A study of Canis lupus familiaris with 29 samples.

Results

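Lymph node RNA sequenced before treatment was compared between dogs whose code begins with MN and dogs whose code begins with PD or PENN. The Day 0 libraries were taken and grouped by the letters of the dog code, which gave 8 MN dogs (MN02, MN03 and MN05 to MN10) and 7 other dogs (PD01, PD03, PD04, PD05, PENN03, PENN04 and PENN05). These are 15 of the 29 libraries of the series; the other 14 are Day 4 libraries of the same dogs, all but PD04. The study worked at the universities of Minnesota, Pennsylvania and Purdue, and the codes are read here as the trial sites, although the labels do not spell them out. All 15 dogs had newly diagnosed large B-cell lymphoma and had received neither valspodar, an inhibitor of the drug efflux pump ABCB1, nor placebo when the node was sampled.

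The groups differed in makeup. Of the 8 MN dogs, 5 were female and 3 male, 3 were later given placebo and 5 valspodar, and they comprised 2 Golden Retrievers, 2 Labrador Retrievers, 2 Vizslas, a Beagle and a Standard Poodle. Of the 7 PD or PENN dogs, 2 were female and 4 male with 1 not recorded, 3 were later given placebo and 4 valspodar, and they comprised 3 Golden Retrievers, 1 Labrador Retriever, 1 Vizsla, an English Bulldog and a dog of unrecorded breed. Ages ran from 3.8 to 10.4 years in MN (median 6.45) and from 4.2 to 11.6 years in 6 of the PD or PENN dogs (median 7.1). Each site enrolled its own dogs, so the site and the particular dogs cannot be told apart. All libraries were sequenced at 1 centre.

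Large B-cell lymphoma fills the node with malignant B cells, and bulk RNA also carries the transcripts of whatever else the biopsy held: macrophages that clear dying cells, neutrophils from blood or inflamed tissue, T cells, vessels and stroma. Many of these cells can express immediate early genes, a class of transcription factors and signalling genes that cells induce within minutes of a stimulus. In bulk samples, fewer cells of a type and less RNA per cell cannot be told apart. The deposited table names genes by Ensembl identifier, and symbols were available for only 23 of its 24580 genes, those the study listed for differences between Day 0 and Day 4 in these same dogs. Those 23 were therefore not chosen for the site, and they are not a neutral sample of the transcriptome either. No B-cell or T-cell marker is among them, so the labelled tissue could not be checked against its defining genes.

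No gene separated MN from PD or PENN before treatment once all genes were taken into account. Expression was measured in FPKM, the fragments assigned to a gene divided by its exon length and by the library's mapped fragments. Of the 11677 genes that averaged 1 FPKM or more, 0 (0%) passed a Benjamini-Hochberg adjusted p of 0.05 in limma on log2(FPKM + 1), and the smallest adjusted p was 0.262. At an unadjusted p under 0.05 there were 759 genes (6.5%), 371 of them at higher and 388 at lower values in MN. The median difference over all genes, MN minus PD or PENN, was -0.0011 on the log2(FPKM + 1) scale, its lowest and highest percentiles starting at -0.96 and 0.94. The 95% interval of a gene extended a median of 0.35 to either side of its difference, and for 9897 genes (84.8%) it lay wholly between -1 and 1. For these genes a site difference of 1 log2 unit or more lay outside the unadjusted interval.

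Separating the codes gave the same count. Taken in 1 fit with 3 levels, 0 genes passed in limma between MN and PD (n = 8 and 4; 601 unadjusted), between MN and PENN (n = 8 and 3; 771 unadjusted) and between PD and PENN (n = 4 and 3; 549 unadjusted). The contrast was then made in the Day 4 libraries (8 MN, 6 PD or PENN), which come from the same dogs and so are not an independent set. Nor are they a like repeat of Day 0, since by Day 4 the dogs had been given valspodar or placebo. The study took wedge biopsies at Day 0 and tru-cut biopsies at Day 4. Neither treatment nor biopsy type was a covariate. At Day 4, 0 genes (0%) passed in limma and 512 (4.38%) had an unadjusted p under 0.05. The difference between the days, tested on each dog's change, again gave 0 genes (0%) in limma and 922 (7.9%) unadjusted.

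Although none passed, a few genes had groups that did not overlap. At Day 0, every MN dog was above every PD or PENN dog in 1 gene and below in 7, which is 8 of 11677 genes (0.0685%). At Day 4 there were 4 such genes (0.0343%), 2 in each direction, and 0 genes had groups apart in the same direction on both days. None of the 23 genes with a symbol was among them on either day.

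The gene with the smallest p, ENSCAFG00000030813, was one of these. Its values ran from 1.3 to 2.11 FPKM in MN (median 1.45) and from 2.24 to 3.94 FPKM in PD or PENN (median 2.88). The highest MN dog, MN07, stood just below the lowest of the others, PD04. This gave a log2 difference of -0.61 (SE 0.10, 95% interval -0.82 to -0.39, limma adjusted p = 0.262). At Day 4 the ranges met, from 1.35 to 2.45 FPKM in MN and from 1.84 to 3.15 in PD or PENN, and the log2 difference was -0.35 (limma unadjusted p = 0.0205, adjusted p = 0.982).

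ENSCAFG00000006471 was likewise lower in every MN dog at Day 0. The 8 MN dogs fell in the narrow span from 7.19 to 8.79 FPKM (median 7.54), and the PD or PENN dogs ran from 9.81 to 15.7 FPKM (median 11.6). The log2 difference was -0.54 (SE 0.095, 95% interval -0.74 to -0.33, limma adjusted p = 0.262). On Day 4 the MN dogs had spread to 4.68 to 9.94 FPKM, overlapping the 6.45 to 19.3 FPKM of the others, with a log2 difference of -0.28 (95% interval -0.76 to 0.20), or -0.09 without PENN05.

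Of the genes at higher values in MN, ENSCAFG00000016655 had the smallest p. It ran from 1.73 to 4.53 FPKM in MN (median 3.23) and from 0.274 to 2.31 FPKM in PD or PENN (median 1.26), so the groups overlapped, though all 8 MN dogs stood above the PD or PENN median. The log2 difference was 0.91 (SE 0.22, 95% interval 0.43 to 1.39, limma adjusted p = 0.642). It was as large at Day 4, at 1.02 (SE 0.22, 95% interval 0.56 to 1.49, limma adjusted p = 0.588), with 1.35 to 5.21 FPKM in MN and 0.522 to 2.2 FPKM in the others. Of the 4 identifiers described, this was the one whose Day 4 difference was not smaller than that of Day 0.

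ENSCAFG00000001720 was next by p among the genes at higher values in MN. At Day 0 it ran from 6.68 to 8.57 FPKM in MN (median 7.7) and from 4.76 to 7.31 FPKM in PD or PENN (median 5.4). PD04 was the dog that reached into the MN range. The log2 difference of 0.38 (95% interval 0.17 to 0.58, limma adjusted p = 0.649) became -0.089 at Day 4 (95% interval -0.39 to 0.21). All 4 identifiers were picked by their p at Day 0, which by itself favours smaller differences at Day 4.

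**Figure D1:**
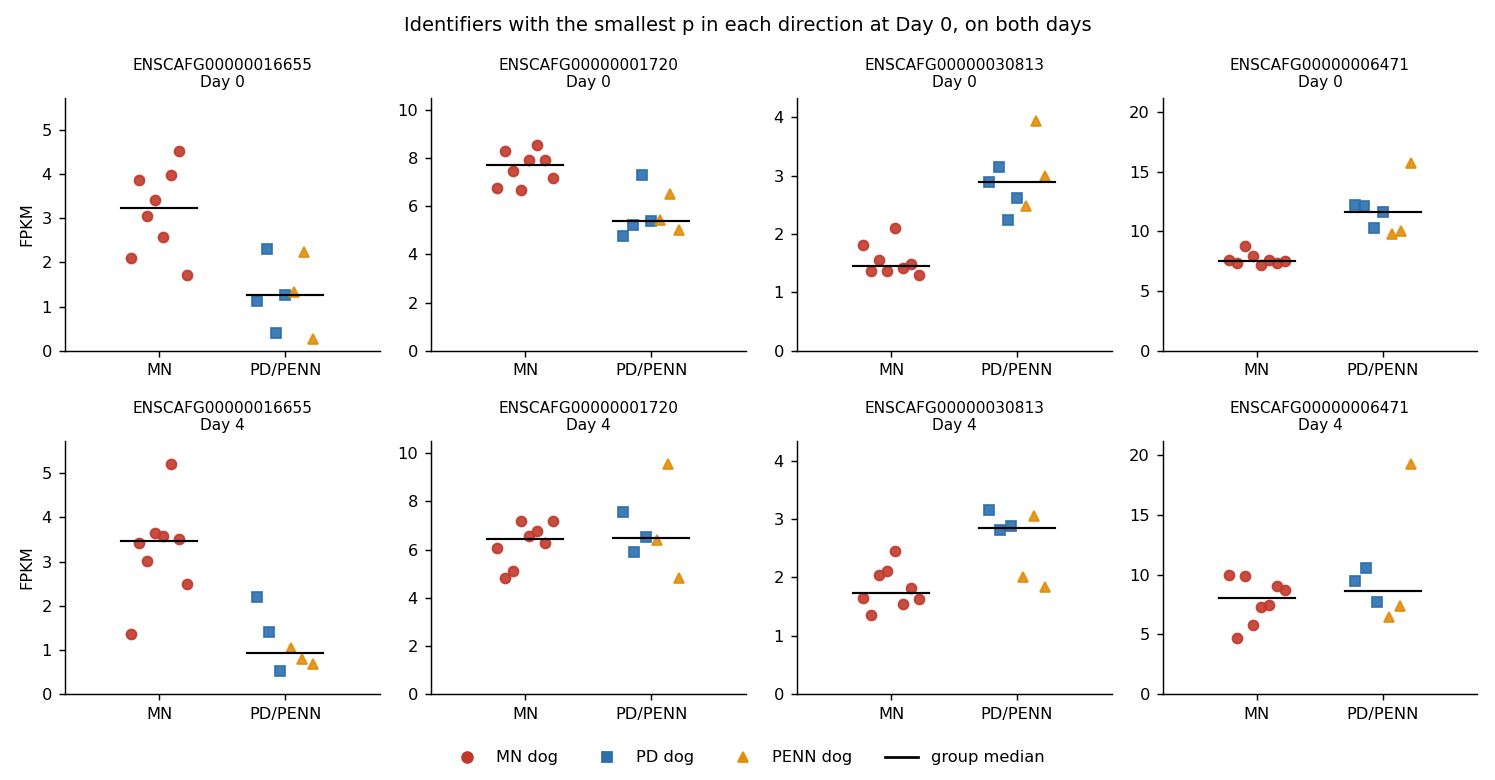
FPKM (vertical axis, from 0) of the 4 identifiers with the smallest p in each direction at Day 0, with 1 point per dog at Day 0 (upper row) and Day 4 (lower row); black lines are group medians. At Day 0 the MN dogs of ENSCAFG00000030813 and ENSCAFG00000006471 lie below all PD or PENN dogs, and at Day 4 both overlap.

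The 23 genes with a symbol gave 0 genes past the threshold at Day 0 and 3 at an unadjusted p under 0.05, where the share over all genes was 6.5%. These were ATF3, NR4A2 and TNFAIP3, all at higher mean values in MN. Of the 23, 18 had a positive and 5 a negative log2 difference, with a median of 0.32 beside -0.0011 over all genes tested. The excess of positive values was not particular to MN: between the pooled codes, PD minus PENN, 21 of the 23 were positive with a median of 0.51, beside 16 with a median of 0.24 for MN minus PD and 21 with a median of 0.56 for MN minus PENN. These 3 contrasts share dogs. The intervals were wide, with a median half-width of 1.11, so that 20 of the 23 reached above 1, 8 reached below -1 and 2 lay wholly between. A unit of 1 is a 2-fold difference in FPKM + 1, which for low genes is a larger fold difference in FPKM. The fixed gene lists could be filled only in part: 6 of 30 lists had any member with a known identifier.

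**Figure D2:**
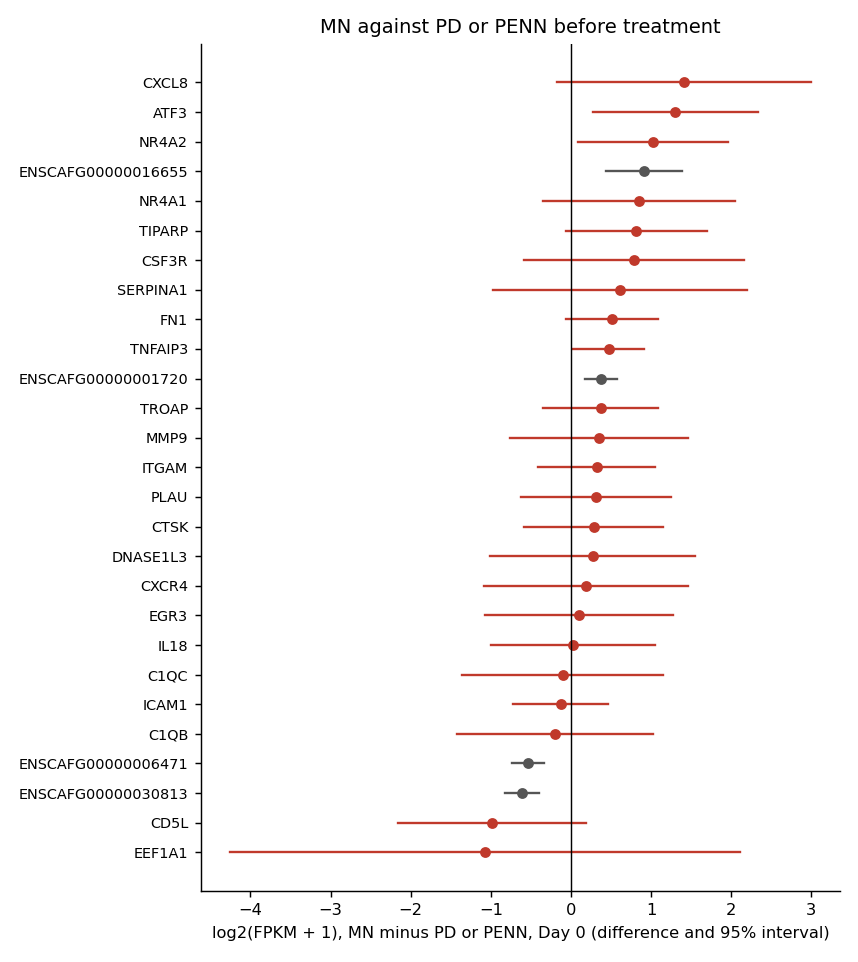
Difference in log2(FPKM + 1), MN minus PD or PENN at Day 0 (horizontal axis), with its 95% limma interval, for the 23 genes with a symbol (red) and 4 identifiers (grey). Most intervals of the named genes cross 0, and those of ATF3, NR4A2 and TNFAIP3 do not, although no adjusted p was under 0.05.

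Of the lists with a member, the immediate early genes had the largest median difference. Of its 27 genes 6 had an identifier, 2 of these (ATF3 and NR4A2) had an unadjusted p under 0.05 (6.5% over all genes), 0 passed after adjustment, and all 6 log2 differences were positive, with a median of 0.83 against -0.0011 over all genes. For EGR3 and CXCR4 that sign was not stable: it turned on leaving out single dogs. The median of the 6 was 0.58 for MN minus PD, 1.17 for MN minus PENN and 0.30 for PD minus PENN.

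ATF3, a stress-induced transcription factor (ENSCAFG00000012339, CanFam3 chromosome 7, 10782153 to 10796616), was at 22.3 FPKM in MN09, 10.2 in MN06, 4.46 in MN05, 4.3 in MN08, 3.32 in MN03, 1.38 in MN02, 0.982 in MN07 and 0.597 in MN10. In the other group it was at 1.68 FPKM in PD01, 1.37 in PD03, 1.13 in PENN04, 0.805 in PENN05, 0.577 in PD05, 0.574 in PENN03 and 0.54 in PD04. Thus 5 MN dogs exceeded every PD or PENN dog, while MN02, MN07 and MN10 lay within their range. The means were 5.94 ± 7.28 FPKM (SD, n = 8) and 0.953 ± 0.45 FPKM (SD, n = 7), a log2 difference of 1.3 (SE 0.48, 95% interval 0.28 to 2.33; limma unadjusted p = 0.0162, adjusted p = 0.741). Against PD alone it was 1.25 and against PENN alone 1.37. With both days in 1 fit and the dog as a replicate block, which averages over the days, it was 0.49.

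NR4A2, an orphan nuclear receptor of the same response (ENSCAFG00000009209), was at 28.4 FPKM in MN09 and 25.9 in MN06, and from 3.55 to 8.16 FPKM in the other MN dogs. PD01 was at 12.1 FPKM, and the remaining PD or PENN dogs lay between 2.43 and 3.8 FPKM. All 8 MN dogs were above the PD or PENN median of 2.76 FPKM, and PD01 alone carried that group into the upper MN range. Between the groups the log2 difference was 1.02 (SE 0.44, 95% interval 0.09 to 1.96; limma unadjusted p = 0.0338, adjusted p = 0.747), and 0.42 with the dog as a replicate block.

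NR4A1, the closest relative of NR4A2 (ENSCAFG00000007338), ran from 0.624 to 34.5 FPKM in MN (median 2.55) and from 0.574 to 2.73 FPKM in PD or PENN (median 2.26). The MN mean of 8.12 ± 11.8 FPKM (SD, n = 8) came from MN09 at 34.5 and MN06 at 16.3 FPKM. The log2 difference was 0.85 (95% interval -0.35 to 2.05, limma adjusted p = 0.827), 0.45 without MN09 and 0.43 with the dog as a replicate block. TIPARP, a stress-responsive ADP-ribosyltransferase, had the same pair on top, with MN09 at 37.4 and MN06 at 27.2 FPKM against a highest PD or PENN value of 12.1 (log2 difference 0.81, 95% interval -0.064 to 1.69). Against PD alone the TIPARP difference was 0.53 and against PENN alone 1.2, and it was 0.42 with the dog as a replicate block.

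EGR3, a zinc-finger factor of antigen receptor signalling, was at 18.5 FPKM in MN09 and 16.5 in MN06, and its highest PD or PENN value was 7.09 FPKM. Yet its median was lower in MN (1.78 FPKM) than in PD or PENN (2.16 FPKM), and the log2 difference of 0.10 (95% interval -1.07 to 1.27) became -0.22 without MN09, -0.19 without MN06 and -0.016 without PD05. CXCR4, the chemokine receptor that holds B cells in node and marrow, did not follow that pair: MN06 was at 21.1 FPKM, the highest MN value was 117 FPKM in MN08, and the PD or PENN dogs ran from 6.75 to 106 FPKM (log2 difference 0.19, 95% interval -1.08 to 1.46).

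In all, MN06 and MN09 each exceeded every PD or PENN dog in 5 of the 6 genes, MN08 in 3, MN03 in 2, MN02 and MN05 in 1 each, and MN07 and MN10 in 0. MN06 and MN09 had the 2 highest values for all but CXCR4. At Day 4, ATF3 was at 0.176 FPKM in MN06 and 2.45 in MN09, and at 72.9 FPKM in MN03 and 48 in PENN03. MN03 and PENN03 were then also the highest dogs for EGR3, at 44.1 and 99.98 FPKM, and MN06 was still next at 22.3 FPKM. The Day 4 log2 difference of ATF3 was -0.47 (95% interval -2.55 to 1.6), and that of NR4A2 was -0.31 (95% interval -2.21 to 1.6). Without PENN03 these turned to 0.21 and 0.40.

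**Figure D3:**
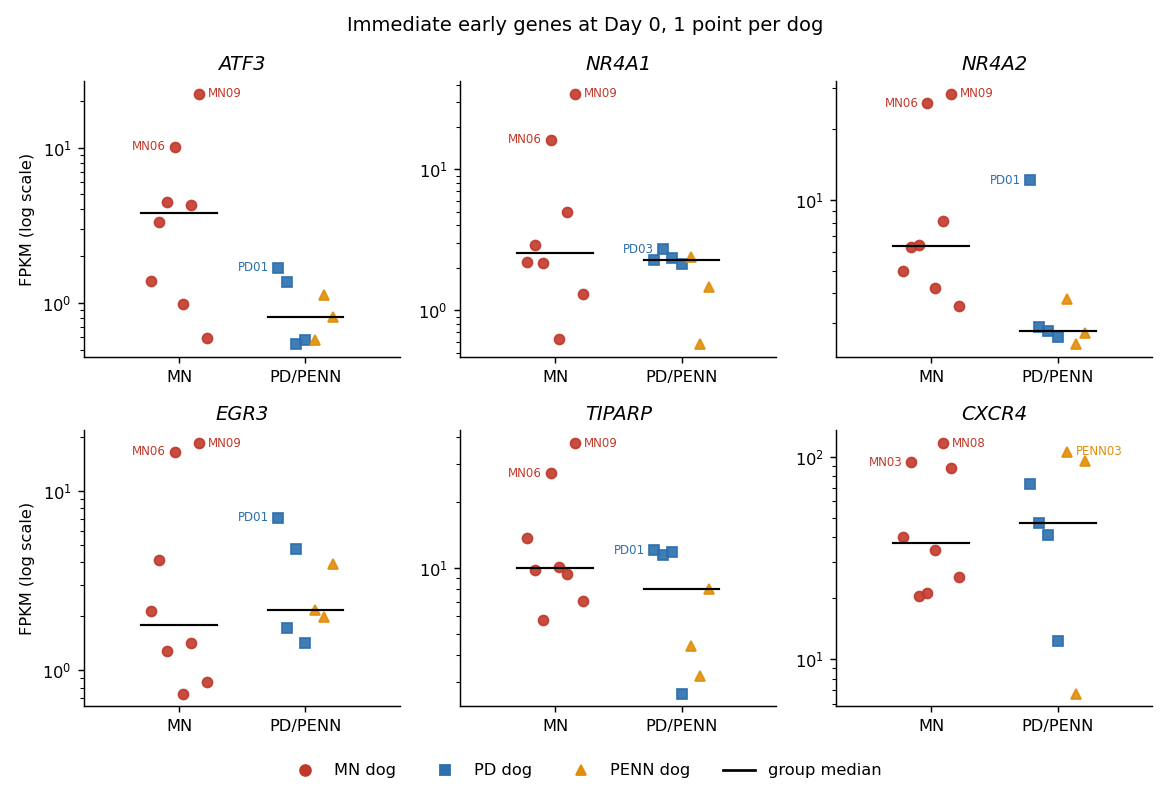
FPKM (vertical axis, log scale) of 6 immediate early genes at Day 0, with 1 point per dog; the highest dogs are named and black lines are group medians. MN06 and MN09 lie above all PD or PENN dogs for every gene shown except CXCR4.

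Of the 2 NF-kB response genes, TNFAIP3 had the smaller p. TNFAIP3 (ENSCAFG00000000267), the A20 enzyme that restrains NF-kB signalling, ran from 8.83 to 18.9 FPKM in MN (median 12.9) and from 5.02 to 12.7 FPKM in PD or PENN (median 9.94). MN08, MN09, MN06 and MN03 stood above the highest of the others, PD01, and the remaining 4 MN dogs were within the range. The log2 difference was 0.47 (SE 0.21, 95% interval 0.03 to 0.91; limma unadjusted p = 0.0394, adjusted p = 0.756), and at Day 4 it was -0.34 (95% interval -1.53 to 0.85), or -0.75 without MN03 and 0.025 without PENN03. Over both days, with the dog as a replicate block, it was 0.097, and at Day 0 without PENN04 it was 0.26 with a covariate of sex and 0.30 with one of Golden Retriever against other breeds. ICAM1, an adhesion molecule for leukocytes, ran from 5.92 to 21.4 FPKM in MN and from 7.41 to 21 FPKM in PD or PENN, and its log2 difference was -0.13 (95% interval -0.73 to 0.47), or from -0.26 without MN06 to -0.00036 without PD04.

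The neutrophil list had 5 of its 15 genes, with 0 past the threshold and 0 at an unadjusted p under 0.05 in limma. All 5 log2 differences were positive, and their median was 0.61 against -0.0011 over all genes. MN03 and MN08 each exceeded every PD or PENN dog in 3 of the 5 genes, and PD04 exceeded every MN dog in the other two, ITGAM and MMP9. All 5 were also positive for PD minus PENN, with a median of 0.76, while the median was 0.28 for MN minus PD and 1.05 for MN minus PENN, so by these medians the list was lowest in PENN.

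CSF3R, the receptor for granulocyte colony-stimulating factor, was at 23.4 FPKM in MN08 and 15.3 in MN03, and from 0.198 to 3.74 FPKM in the other 6 MN dogs. In PD or PENN it ran from 0.0174 FPKM in PENN03 to 7.79 in PD04 (median 1.16), overlapping all but those 2 MN dogs. The resulting log2 difference was 0.79 (SE 0.64, 95% interval -0.59 to 2.16, limma adjusted p = 0.866), and 0.43 without MN08 or 0.51 without MN03. SERPINA1, a protease inhibitor that neutrophils and macrophages as well as liver make, followed the same order, with 37.3 FPKM in MN08, 29.2 in MN03 and 15.4 in PD04, and its log2 difference was 0.61 (95% interval -0.98 to 2.2), or 0.25 without MN08, 0.29 without MN03, 0.93 without PD04 and 0.95 without MN06. Its medians, 4.02 FPKM in MN and 3.19 FPKM in PD or PENN, were close.

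CXCL8, the chemokine that draws neutrophils, had the largest difference of the 23 genes. MN08 was at 111 FPKM and MN03 at 15.7, the other MN dogs ran from 1.24 to 3.74 FPKM, and the PD or PENN dogs ran from 0.189 to 3.66 FPKM (median 0.708). All 8 MN dogs were above the PD or PENN median. The log2 difference of 1.41 (SE 0.74, 95% interval -0.17 to 3; limma unadjusted p = 0.0773, adjusted p = 0.787) was 0.81 without MN08.

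ITGAM, the alpha chain of the integrin Mac-1, and MMP9, a matrix protease of neutrophil granules and macrophages, had their highest value in PD04 (3.82 and 7.56 FPKM), with MN03 (3.51 and 7.15 FPKM) and MN08 (3.29 and 6.34 FPKM) next. Their log2 differences were 0.32 (95% interval -0.41 to 1.05) and 0.35 (95% interval -0.76 to 1.46), falling to 0.18 and 0.13 without MN03 and standing at 0.55 and 0.67 without PD04. The groups overlapped throughout.

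The macrophage list had 4 of its 18 genes, of which 1 had a positive and 3 a negative log2 difference, with a median of -0.15, 0 past the threshold and 0 at an unadjusted p under 0.05 in limma. The median was -0.49 for MN minus PD and 0.30 for MN minus PENN, and all 4 genes were positive for PD minus PENN (median 0.48). C1QB and C1QC, which encode chains of the complement component C1q and lie side by side on CanFam3 chromosome 2 (76649362 to 76655660 and 76659986 to 76664962), both had MN03 as the highest MN dog and PENN05 as the highest of the others. C1QC ran from 10.2 FPKM in MN09 to 180 in MN03 (median 51.1) in MN, and from 9.07 in PENN04 to 113 in PENN05 (median 67.9) in PD or PENN. The group means were 60.5 ± 52.9 FPKM (SD, n = 8) and 61.6 ± 37.8 FPKM (SD, n = 7), and the log2 difference was -0.10 (95% interval -1.36 to 1.15). Single dogs decided its sign. For C1QB the log2 difference was -0.20 (95% interval -1.43 to 1.02), or -0.53 without PENN04 and 0.073 without MN09.

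CD5L, a macrophage-secreted protein that binds lipids and IgM, was the macrophage gene with the largest difference. It ran from 0.836 to 9.28 FPKM in MN (median 4.6) and from 2.83 to 46.8 FPKM in PD or PENN (median 6.76), where PD04 at 46.8, PENN05 at 29.9 and PD03 at 13 FPKM exceeded every MN dog. The log2 difference was -0.99 (SE 0.55, 95% interval -2.16 to 0.19; limma unadjusted p = 0.0944, adjusted p = 0.787), and -0.63 without PD04. At Day 4, CD5L was the one of the 23 genes with an unadjusted p under 0.05, a share like the 4.38% over all genes, with 1.49 to 38.7 FPKM in MN (median 6.89), 5.1 to 83.2 FPKM in PD or PENN (median 28.1) and a log2 difference of -1.68 (SE 0.68, 95% interval -3.15 to -0.22; limma unadjusted p = 0.027, adjusted p = 0.982). CTSK, a collagen-degrading protease, ran from 15.5 to 121 FPKM in MN and from 13.2 to 45.4 FPKM in PD or PENN, with MN03 on top and a log2 difference of 0.29 (95% interval -0.58 to 1.15), of which 0.018 remained without MN03.

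MN03 thus had the highest MN value of C1QB, C1QC, CTSK, ITGAM and MMP9 and the second highest of CSF3R, SERPINA1 and CXCL8. In MN09, the dog highest for most immediate early genes, C1QB was at 4.59, C1QC at 10.2, CD5L at 0.836 and CTSK at 15.5 FPKM, each the lowest of the 8 MN dogs. How far differing amounts of myeloid cells between biopsies enter the differences above was not tested.

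**Figure D4:**
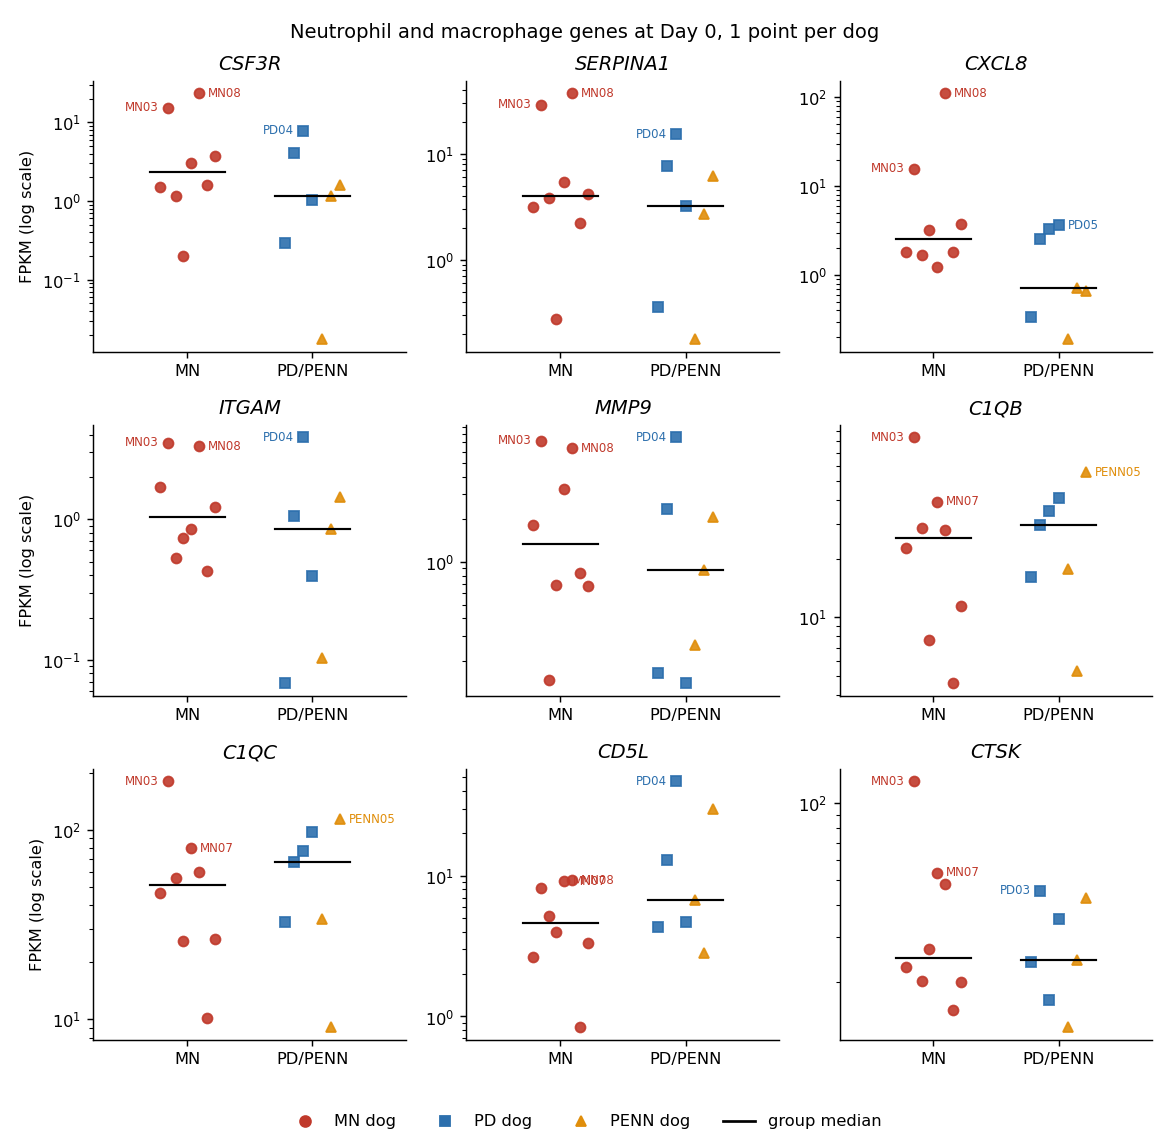
FPKM (vertical axis, log scale) of 5 genes of the neutrophil list (CSF3R, SERPINA1, CXCL8, ITGAM, MMP9) and 4 of the macrophage list (C1QB, C1QC, CD5L, CTSK) at Day 0, with 1 point per dog. The highest dogs are named and black lines are group medians. MN03 and MN08 are the highest MN dogs for the genes of the neutrophil list, and PD04 is highest for ITGAM and MMP9. CD5L is highest in PD04 and PENN05, and the groups overlap for every gene.

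Of the remaining genes, FN1, the matrix protein fibronectin, ran from 0.255 to 2.85 FPKM in MN (median 1.16) and from 0.0351 to 1.51 FPKM in PD or PENN (median 0.442), with 6 of 8 MN dogs above the PD or PENN median and a log2 difference of 0.52 (95% interval -0.057 to 1.09; limma unadjusted p = 0.0739). TROAP, a spindle protein of dividing cells and the one cell cycle gene measured, ran from 5.7 to 22.4 FPKM in MN and from 3.53 to 17.4 FPKM in PD or PENN (log2 difference 0.37, 95% interval -0.34 to 1.09, or 0.19 without PD01). The log2 differences of IL18, a cytokine of the inflammasome, PLAU, the urokinase protease, and DNASE1L3, a nuclease of macrophages and dendritic cells, were 0.025, 0.31 and 0.27, each with an interval across 0 and each moved by over 1.5 times when single dogs were left out.

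EEF1A1, whose symbol stands for a translation elongation factor, split the dogs within each group. The identifier (ENSCAFG00000014627) covers 60899869 to 60901258 on CanFam3 chromosome 3. It was at 817 FPKM in MN08 and 234 in MN05 but from 1.48 to 5.56 FPKM in the other 6 MN dogs, and at 242 FPKM in PD03, 233 in PD05 and 121 in PENN04 but from 2.54 to 7.21 FPKM in the other 4 dogs. High and low dogs occurred under all 3 codes, and the log2 difference of -1.07 had a 95% interval from -4.26 to 2.11 and ran from -1.94 without MN08 to -0.52 without PD03. At Day 4 MN05, PD03, PD05 and PENN04 were again between 76.8 and 207 FPKM, while MN08 was at 3.44 FPKM. Elongation factor genes have near-identical copies in mammalian genomes, so reads assigned to this locus are uncertain.

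The signs of the 23 genes were split otherwise on the later day. At Day 4, 7 had a positive and 16 a negative log2 difference, with a median of -0.28, against 18 and 5 at Day 0. The change from Day 0 to Day 4 was less positive in MN for 23 of 23 genes, with a median of -0.67 beside 0.0015 over all genes, and 0 of the 23 had an unadjusted p under 0.05 in limma. These genes had been chosen by the study for their change between the same 2 days in these dogs, and both days of the same dogs enter, so this count is a description of the list.

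Beyond single genes, the libraries as wholes were compared by principal components of log2(FPKM + 1) over the 11677 genes. For components 1, 2 and 4 (16.8%, 11.2% and 8.41% of the variance), 0.32%, 0.0027% and 5.33% of the component's variance lay between MN and PD or PENN, with adjusted p-values of 0.985, 0.985 and 0.806 (two-sided exact permutation tests over 6435 assignments, n = 8 and 7). Component 3 (9.08% of the variance) had 45.5% of its variance between the groups (exact permutation p = 0.0059, adjusted over the 4 components p = 0.0236).

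On component 3 the MN dogs scored between 3.6 and 20.2. Of the PD or PENN dogs, 6 scored between -42.9 (PD03) and -9 (PENN04), and PD05 scored 25.8, the highest of all. The separation of the other 14 dogs was complete, and PD05 stood on the MN side. The result rested on the makeup of the sample: with each dog left out in turn, the adjusted p stayed under 0.05 in 5 of 15 runs and ran from 0.0013 (without PD05) to 0.916 (without PENN03, where only 0.108% of the variance of component 3 lay between the groups and the second component held 31.5%, adjusted p = 0.153). With genes scaled to unit variance the share of component 3 was 49.3% (exact permutation, adjusted p = 0.005), and with quantile normalization it was 41.4% (adjusted p = 0.0286). On FPKM without the log the components are other axes: component 3 had 1.51% (adjusted p = 0.88), and component 1, with 84.6% of the variance, had 34.5% (exact permutation p = 0.016, adjusted p = 0.064). Of the 23 genes, CXCL8, CD5L and ATF3 had the largest weights on component 3, at ranks 107, 272 and 356 of 11677; CXCL8 and ATF3 pointed to the MN side and CD5L to the other.

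**Figure D5:**
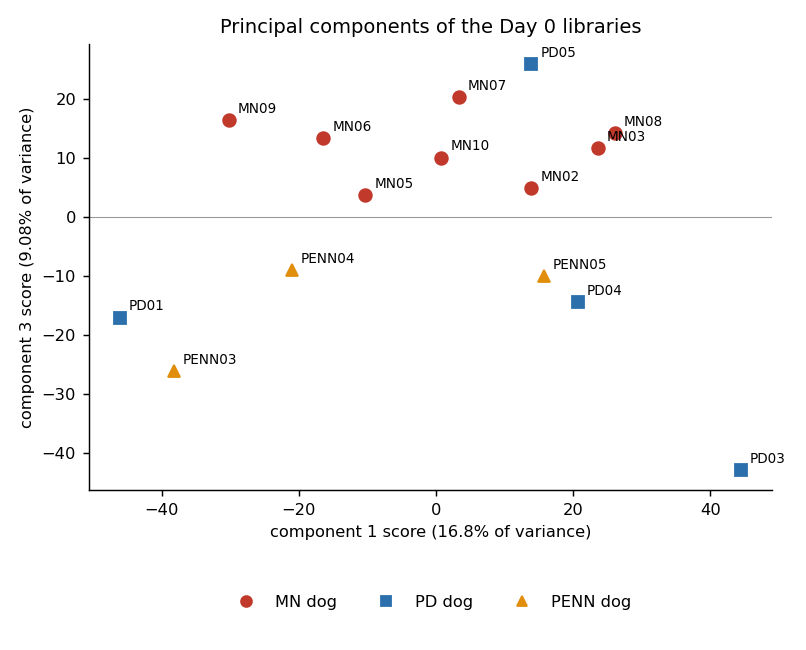
Scores of the 15 Day 0 libraries on components 1 (horizontal) and 3 (vertical) of log2(FPKM + 1), in arbitrary units, with 1 named point per dog. The 8 MN dogs score from 3.6 to 20.2 on component 3, and all PD or PENN dogs except PD05 score below 0.

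The MN libraries were also more like each other than the PD or PENN libraries were. The root-mean-square distance between 2 libraries over all genes averaged 0.757 log2 units within MN and 0.91 within PD or PENN, a difference of -0.15 (two-sided exact permutation p = 0.0113). It lay between -0.17 and -0.13 with any dog left out (exact permutation p from 0.0076 to 0.027). Per gene, the SD was larger in PD or PENN for 8360 genes (71.6%). The PD or PENN group pools 2 codes, and the part of that pooling in the wider spread was not tested. The median distance was 0.767 between MN dogs (28 pairs, 0.642 to 0.888), 0.917 between PD dogs (6 pairs, 0.851 to 1.08), 0.869 between PENN dogs (3 pairs, 0.849 to 0.998) and 0.883 between PD and PENN dogs (12 pairs, 0.767 to 1.04). Between MN and PD dogs the median distance was 0.84 (32 pairs, 0.702 to 1.01), and between MN and PENN dogs 0.839 (24 pairs, 0.71 to 0.987). Both medians were below those among PD and PENN dogs. Pairs share dogs, and the ranges overlap. This comparison was made after the values had been seen.

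The share of summed FPKM in the 10 most abundant genes moved the same way. It ran from 10.2% to 15.2% in MN (mean 13.0% ± 1.64, SD, n = 8) and from 12% to 28.9% in PD or PENN (mean 18.7% ± 6.17, SD, n = 7). PD03, PD04, PENN04 and PENN05 exceeded every MN dog. The exact permutation p was 0.023, and adjusted over the 4 library properties compared it was 0.092. The number of genes above 0 FPKM ran from 14555 to 15280 in MN and from 14278 to 15612 in PD or PENN (exact permutation p = 0.755), relative depth from 0.875 to 1.57 and from 0.848 to 1.84 with the median library at 1 (p = 0.701), and the exact permutation p for age was 0.692. FPKM values keep no read counts, so no interval for counting error could be given. The part of these library properties in the spread and in component 3 was not tested.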

How the data were processed

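RNA from lymph node biopsies was sequenced by the study as paired-end libraries. According to the study's methods and submitters' processing notes, the authors trimmed reads with Trimmomatic 0.33, mapped them to CanFam3 with HISAT2 2.0.2, quantified each library with Cuffquant of Cufflinks 2.2.1 with multi-read correction, and deposited FPKM from Cuffnorm (classic-fpkm); replicates were not pooled. FPKM are scaled per library and per exon length, so differences are relative, and a few abundant genes can lower all others. The study's Cuffdiff test needs mapped reads and was not run here.

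The table of the series was used, since each sample's own column was identical to it. Values were taken as log2(FPKM + 1), which understates the change of low genes, and 11677 of 24580 genes were kept, those averaging 1 FPKM or more across 29 libraries. The test was limma (version 3.58.1, R 4.3.3) with lmFit and a trended eBayes, adjusted by Benjamini-Hochberg, and genes counted as passing at an adjusted p below 0.05. The Day 0 and Day 4 fits held only the libraries of that day, with no covariate, and the change was fitted on Day 4 minus Day 0 of the 14 dogs with both. Every p of a single gene is from limma. Components, spread and library properties were compared by two-sided exact permutation over dogs (Python 3.11.15, numpy 2.4.6, scipy 1.17.1). The fits were tested on simulated data.

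Relative depth came from ratios of low values of 1331 genes shared between libraries. A stricter rule (323 genes) was tried first and left as few as 14 genes shared by 2 libraries, and the rule was changed after that result was seen. The estimate is rough.

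Symbols and positions of 23 genes were taken from the study's supplementary sheets (identifiers, symbols and loci only); no other identifier was paired with a symbol here. Named genes were these 23 and, by p, 2 identifiers in each direction. The comparison, the members and the gene lists were chosen with earlier results of these data known. Alternatives were a pseudocount of 0.1, no filter or a mean of 5 FPKM, quantile and median-ratio scaling, robust eBayes, library weights, sex, age, Golden Retriever or not (these 3 without PENN04, which has none recorded) or DLYM number as covariates, subsets by DLYM number or code, the dog as a replicate block, and each dog left out. The spread within groups, its omissions of dogs, and those for components and library properties were added after seeing the data.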

Additional observations from a re-analysis of the deposited data

Results flagged for a closer look

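Within each group at Day 0, the highest and the lowest dog were compared with the nearest of the others for the 27 named genes, 4 library properties and 4 components, which made 70 sets of values. In 3 of them a dog stood apart by Dixon's ratio of the gap to the range, where chance would give about 3.5. NR4A2 in PD01 was the highest of PD or PENN (ratio 0.749 on the log2 scale), at 12.1 FPKM where the other 6 dogs lay between 2.43 and 3.8 FPKM. The other two were both in the relative depth. MN10 was the highest of MN at 1.57 (ratio 0.572), and PD05 was the highest of PD or PENN at 1.84 (ratio 0.662).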

How the results depend on the processing

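Among the PD or PENN dogs, the DLYM number in the labels nearly follows the code. The 11xx dogs are PD01, PENN03, PENN04 and PENN05, and the 12xx dogs are PD03, PD04 and PD05. Subsets by DLYM number and by code are therefore not separate checks. For MN against PD or PENN at Day 0, limma called 0 genes at an adjusted p under 0.05 under every alternative except the subsets by DLYM number. It called 1 gene with only DLYM 11xx (4 MN and 4 other dogs) and 2 genes with only DLYM 12xx (4 and 3). These were ENSCAFG00000026443 (11xx, log2 difference -6.34, adjusted p = 0.0027, and -2.85, adjusted p = 0.787, in all dogs), and ENSCAFG00000021014 and ENSCAFG00000003765 (12xx, -3.86 and -1.97, both adjusted p = 0.0306, and -2.85 and -0.79 in all dogs, adjusted p = 0.584 and 0.798); they were chosen after their values were seen. Unadjusted counts at Day 0 ran from 599 (without MN09) to 1016 (without PD05), and other alternatives on the same 11677 genes gave 596 to 953. A mean of at least 5 FPKM gave 584 and no filter gave 933, each over another number of genes, so these counts are not comparable. At Day 4, limma called 0 genes under every alternative, and the unadjusted count of 512 ran from 417 to 777 without single dogs, 777 being without PD05. PD against PENN gave 312 unadjusted genes, in place of 549, with only those dogs in the fit.

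The groups share no dog, so the Day 0 contrast has no pairs of dogs. With both days of every dog in 1 fit and the dog as a replicate block (consensus correlation 0.623), which averages the contrast over the days, limma called 0 genes and 596 were at an unadjusted p under 0.05. The log2 difference was smaller in size than at Day 0 alone in 19 of the 27 named genes, the sign turned in 5 of the 27, and it was 0.49 for ATF3, 0.42 for NR4A2, 0.097 for TNFAIP3 and 0.060 for FN1, in place of 1.3, 1.02, 0.47 and 0.52.

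Component 3 passed in 5 of 15 omissions of a dog; its share between the groups ran from 0.108% to 76.7%. It was 49.3% with genes scaled to unit variance and 41.4% with quantile normalization, both passing, and 1.51% on FPKM without the log, where component 1 held 34.5% (exact permutation, adjusted p = 0.064). The share of the 10 most abundant genes differed by -6.80 to -3.98 percentage points without single dogs, and passed (adjusted p under 0.05, exact permutation) in 3 of 15, without PD01, PD05 or PENN03. Without single dogs, the difference in genes above 0 ran from -38.0 to 184.3, that in age from -1.18 to 0.30 years and that in relative depth from -0.13 to 0.071, so their signs were not stable; relative depth differed by 0.078 under the stricter rule, in place of -0.052.

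No named gene passed under any alternative, and the sign of the log2 difference turned as follows. With only DLYM 11xx it was 0.55 for C1QB, 0.82 for C1QC, -0.42 for CXCR4 and 0.46 for ICAM1. With only DLYM 12xx it was -0.0023 for CTSK, -0.78 for DNASE1L3, -0.89 for IL18, -0.098 for ITGAM, -0.027 for MMP9, -0.29 for PLAU and -0.071 for SERPINA1. Against PENN only it was 0.18 for C1QB, 0.42 for C1QC and 0.16 for ICAM1, and against PD only -0.23 for IL18 and -0.010 for PLAU. With the dog as a replicate block it was -0.018 for CTSK, -0.26 for CXCR4, -0.053 for EGR3, -0.16 for IL18 and -0.075 for PLAU. The fits with a covariate of sex, age or Golden Retriever (against all other breeds) also left out PENN04, which has none recorded, and without PENN04 alone CXCR4 was at -0.20 and IL18 at -0.18. With sex it was -0.42 for CXCR4, -0.19 for IL18 and -0.00071 for PLAU, with age -0.15 for CXCR4 and -0.23 for IL18, with Golden Retriever -0.52 for CXCR4 and -0.041 for IL18, and with DLYM number -0.0026 for IL18. With library weights it was 0.091 for C1QC and -0.22 for EGR3, and with a pseudocount of 0.1 it was -0.016 for EGR3 (FN1 kept its sign at 1.19). Without single dogs it ran from -0.53 to 0.073 for C1QB, -0.49 to 0.19 for C1QC, -0.20 to 0.43 for CXCR4, -0.22 to 0.28 for EGR3 and -0.18 to 0.28 for IL18 at Day 0, and at Day 4 from -1.11 to 0.21 for ATF3, -0.76 to 0.40 for NR4A2, -0.75 to 0.025 for TNFAIP3 and -0.17 to 0.0028 for ENSCAFG00000001720. The cause of these turns was not tested. The width of the intervals limits all of these values, since most intervals of the named genes span more than 1 log2 unit on either side. The parts of the number of dogs and of the spread between dogs in that width were not tested.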
